A study of Mus musculus with 8 samples.

Results

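Solute carrier genes encode membrane proteins that move nutrients, ions, vitamins, metals and metabolites across the plasma membrane or into organelles. They work by facilitated diffusion or by coupling transport to an ion gradient, without splitting ATP, and each family number groups proteins of related sequence. During gastrulation, cells of the epiblast pass through the primitive streak and become mesoderm, and glucose and amino acid transporters are among the genes that set what such cells can take up. The genes described here are those whose single annotated symbol on an Affymetrix mouse perfect-match array has the form Slc, a family number, the letter a and a member number. A gene was kept when its probe set with the highest mean exceeded 4.38, the log2 value in the middle of the whole table, on at least 2 of the 8 arrays. Of 292 such genes, 191 were kept, among 11696 genes kept in all. The letter rule leaves out the families Slco and Slc35b to Slc35f, which also transport solutes.

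The cells came from gastrulating mouse embryos of the genotype Mesp1-rtTA/Teto-H2B-GFP, in which a Mesp1-driven transactivator switches on a nuclear GFP. The 4 groups were GFP+ and GFP- cells at embryonic day (E) 6.5, around the onset of gastrulation, and the same fractions at E7.5, with 2 arrays each. Each array held amplified RNA of 50 living sorted cells, and all groups carried both transgenes. GFP shows activity of the Mesp1-driven system, and GFP- cells are all other cells of the dissociated embryo, so they can hold epiblast, endoderm, extraembryonic and other mesoderm cells. The labels call the arrays of a group biological replicates 1 and 2 without saying how many embryos each sort pooled, so the errors below measure the spread between these arrays. Levels are the authors' log2 values after RMA (robust multi-array average), and levels of different genes cannot be compared because each comes from another probe set. In such sorted pools, fewer cells that express a gene and less RNA per cell cannot be told apart.

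Mesp1 itself was at 5.64 and 6.26 in the GFP- arrays and 9.75 and 10.03 in the GFP+ arrays at E6.5, and at 7.76 and 8.06 against 8.75 and 8.65 at E7.5. The fractions thus separated in the direction of their label at both stages, with a smaller gap at E7.5. The replicate numbers stood apart from each other. Array medians were 4.20 to 4.23 for replicate 1 and 4.54 to 4.59 for replicate 2, and among the 191 transporter genes the first principal component (34.2% of their variance) separated the numbers. The second (23.9%) set both GFP- E6.5 arrays apart from the other 6. Of 14 measured visceral endoderm markers, whose cells form the absorptive outer layer of the early embryo, 10 were higher in both GFP- than in both GFP+ arrays at E6.5 by at least 1 log2 unit. Their summed level was 82.4 to 107 in GFP- E6.5, 59.0 to 65.3 in GFP+ E6.5, 65.5 to 83.2 in GFP- E7.5 and 67.4 to 68.5 in GFP+ E7.5, and none of the 14 lay under 4.38 on every array. The summed level of 7 epiblast markers was 64.9 to 65.9 in GFP- and 55.0 to 56.1 in GFP+ cells at E6.5, and 56.3 to 57.0 and 47.0 to 49.9 at E7.5. Of 7 measured extraembryonic ectoderm markers, 3 were separated downward in GFP+ cells at E6.5 and 2 at E7.5. Their summed level was 37.7 to 43.3 in GFP- and 31.7 to 33.8 in GFP+ cells at E6.5, and 38.7 to 47.2 and 37.1 to 37.2 at E7.5. The part of these cell types in the transporter differences was not tested.

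No transporter gene passed the test in any of 7 comparisons (limma without a block, with Benjamini-Hochberg adjustment over 11696 genes, adjusted p under 0.05). With the replicate number as a block, limma called 1 of 191 for the fractions at E6.5, against 0.256% of all genes. It called no transporter, against 0.333%, 0.0684% and 0.804% of all genes, between stages in GFP- cells, between fractions over both stages and between stages over both fractions. At an unadjusted p under 0.05, limma without a block gave 20 transporter genes for the fractions at E6.5 and 6 at E7.5. Of all genes, 2.62% were higher and 3.1% lower at E6.5, and 1% and 1.41% at E7.5. Between stages it gave 12 in GFP+ cells, against 2.35% and 1.5% of all genes, and 14 in GFP- cells, against 3.45% and 3.04%. It gave 16 for the fractions over both stages, against 2.38% and 3.1%. For the stages over both fractions it gave 18, against 3.85% and 3.37%, and for the interaction 3, against 1.34% and 1.36%. In the fit without a block, a typical difference between 2 groups carried a standard error (SE) of 0.45. Its 95% interval reached 1.06 log2 units to either side, so differences of under about this size are left undecided by that fit. Larger differences did not pass its adjusted test either. Errors, intervals and p values below come from fits without a block unless one is named. With the block, more transporters reached an unadjusted p under 0.05: 29 for the fractions at E6.5, 13 at E7.5 and 13 for the interaction. Between stages there were 16 in GFP+ and 26 in GFP- cells. There were 23 for the fractions over both stages and 31 for the stages over both fractions. Shares of all genes at that p with the block are not given here. To describe the members, a gene is called separated below when the arrays of the groups compared did not overlap and their means differed by at least 1 log2 unit, which is a description and no test. For a comparison over both stages or both fractions, non-overlap was required within each stage or each fraction, in the same direction, and not across them. In at least 1 of the 4 comparisons of single groups 31 of 191 transporter genes (16.2%) were separated, against 12.9% of all genes kept. The 4 group means of 151 members spanned less than 1 log2 unit, and those of 83 less than 0.5.

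To show the sequence just upstream of genes whose fractions did not overlap at either stage, the 250 bases before the start of Slc27a2, Slc2a1 and Slc5a3 are printed here, since each has 1 listed start in RefSeq (mouse build GRCm38.p6). They encode a fatty acid transporter, a glucose transporter and a myo-inositol transporter. The first 2 were lower and the third higher in GFP+ cells, though the first met the filter only through its GFP- arrays. All lie on the plus strand, at chr2:126552774-126553023, chr4:119108495-119108744 and chr16:92058072-92058321, and are written 5′ to 3′. Capitals mark matches, on either strand, to a GC box (GGGCGG), a Snail-type E-box (CAGGTG), the core of a hypoxia element (ACGTG) or a TATA box (TATAAA).
Slc27a2: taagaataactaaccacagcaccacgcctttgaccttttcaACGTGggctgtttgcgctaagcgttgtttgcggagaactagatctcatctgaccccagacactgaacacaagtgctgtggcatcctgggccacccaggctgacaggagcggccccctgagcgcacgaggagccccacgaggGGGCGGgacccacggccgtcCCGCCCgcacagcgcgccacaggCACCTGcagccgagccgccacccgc
Slc2a1: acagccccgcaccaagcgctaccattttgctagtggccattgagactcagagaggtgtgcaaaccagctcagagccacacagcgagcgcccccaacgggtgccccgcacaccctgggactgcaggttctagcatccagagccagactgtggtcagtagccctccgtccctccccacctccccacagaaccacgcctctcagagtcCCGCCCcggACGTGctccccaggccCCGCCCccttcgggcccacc
Slc5a3: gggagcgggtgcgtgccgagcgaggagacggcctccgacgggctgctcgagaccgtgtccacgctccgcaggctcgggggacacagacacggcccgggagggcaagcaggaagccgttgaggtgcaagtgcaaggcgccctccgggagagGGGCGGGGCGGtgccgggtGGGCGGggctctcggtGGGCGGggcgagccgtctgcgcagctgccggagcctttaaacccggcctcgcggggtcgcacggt
The Slc27a2 window holds 2 GC boxes, 1 E-box and 1 hypoxia core, the Slc2a1 window 2 GC boxes and 1 hypoxia core, and the Slc5a3 window 4 GC boxes, of which a pair overlaps. None of these windows holds a TATA box match. Of 142 transporter genes with a window, 62% hold a GC box, 19.7% the E-box, 25.4% the hypoxia core and 7.75% the TATA box. The shares over all 27025 genes with a window, taken without the level filter, were 32.9%, 17.1%, 16.6% and 13%. As only the transporters had to pass that filter, the shares do not show a trait of transporters. A match describes letters only.

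At E6.5 the comparison of fractions asked which transporters distinguished cells with Mesp1 reporter activity from the rest of the embryo. Lower values in GFP+ cells were the more common: 15 transporter genes (7.85%) were separated downward and 4 (2.09%) upward, against 3.45% and 2.72% of all genes kept. The 15 include Slc27a2 and Slc26a6, which met the filter only through GFP- arrays, so their place in this count was partly fixed by that choice. The adjusted-p rule called 0.00855% of all genes lower and 0.0684% higher, and no transporter, and an unadjusted p under 0.05 was reached by 3.1% lower and 2.62% higher (transporters, 14 and 6). The median difference was -0.05 over the transporters and 0.01 over all genes. The 15 lower genes came from 10 substrate groups and the 4 higher ones, Slc4a4, Slc5a3, Slc19a3 and Slc41a1, from 4 (see the plot of differences by substrate group). At E7.5 3 genes were separated upward and 3 downward (1.57% each), against 1.21% and 1.51% of all genes. The adjusted-p rule called 0% of genes in either direction there, while 1% of all genes were higher and 1.41% lower at an unadjusted p under 0.05 (transporters, 3 each).

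**Figure D1:**
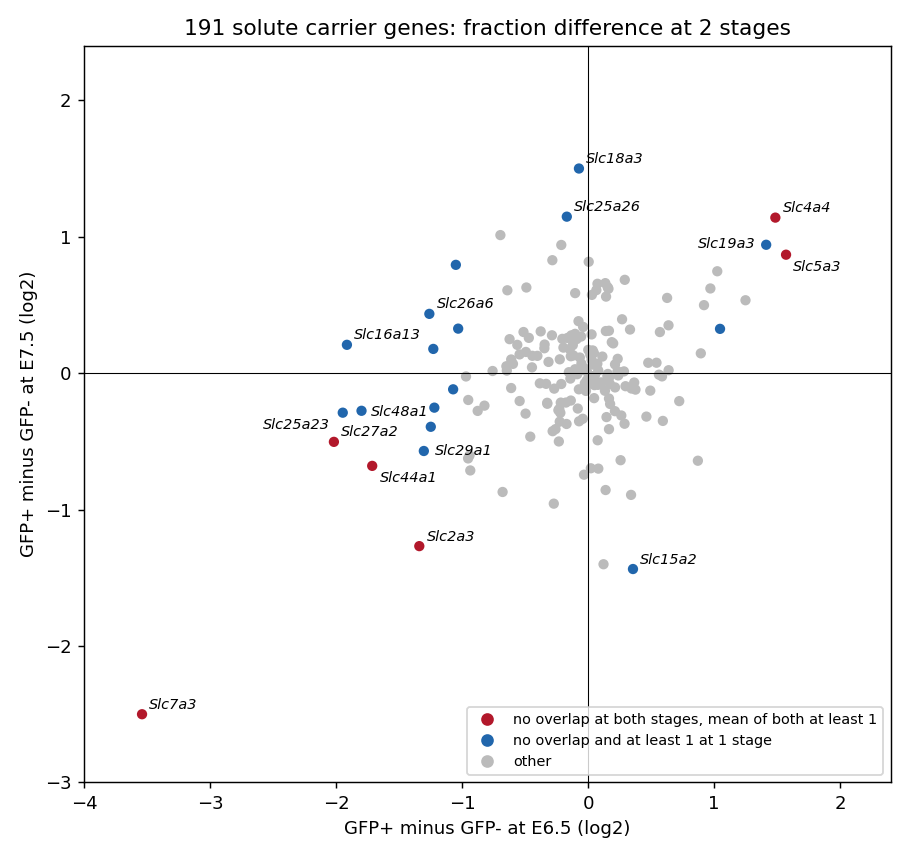
GFP+ minus GFP- difference (log2, means of 2 arrays a group) at E6.5 on the horizontal and at E7.5 on the vertical axis for 191 solute carrier genes. Slc7a3 lies lowest on both axes (-3.54 and -2.50), Slc4a4 and Slc5a3 lie in the upper right, and most genes lie within 1 log2 unit of 0 on both.

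Among amino acid transporters, Slc7a3 showed the widest gap between fractions. It encodes CAT3, a carrier of arginine, lysine and ornithine. At E6.5 its level was 10.36 and 10.24 in replicates 1 and 2 of GFP- cells and 5.58 and 7.93 in GFP+ cells. At E7.5 it was 8.27 and 8.53 in GFP- and 5.91 and 5.89 in GFP+ cells. Both GFP- arrays exceeded both GFP+ arrays at each stage, with GFP+ E6.5 replicate 2 nearest to the GFP- values. Of the epiblast markers, Utf1 was at 8.40 in that array against 6.13 in replicate 1, and Otx2 at 9.03 against 8.53. Cdh1 was at 6.14 against 5.84 and Sox2 at 3.98 against 3.56. Pou5f1 was at 10.87 against 11.35, Fgf5 at 6.58 against 8.50 and Dnmt3b at 11.06 on both. The difference was -3.54 at E6.5 (SE 0.68, limma adjusted p = 0.189), -2.50 at E7.5 (SE 0.68) and -3.02 over both stages (SE 0.48, limma adjusted p = 0.148). Without GFP+ E6.5 replicate 2, the array nearest to the GFP- values, the last value was -3.61. The E6.5 difference was -4.72 without that array and -2.36 without GFP+ E6.5 replicate 1. The part of epiblast cells in this difference was not tested.

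Its paralogue Slc7a1, which encodes CAT1 with the same substrates, did not separate. It was at 5.72 and 6.81 in GFP- and 5.17 and 6.27 in GFP+ cells at E6.5, and at 6.71 and 5.54 against 5.95 and 5.89 at E7.5. Its difference over both stages was -0.37 (95% interval -1.33 to 0.58). The remaining amino acid carriers were closer between fractions: of 35, 23 had a difference below 0 and 12 above 0 at E6.5, with a median of -0.14, and Slc7a3 was the one that separated. Slc3a2, the heavy chain that brings several light chains to the cell surface, was at 10.55 and 10.44 against 10.54 and 10.19 at E6.5, a difference of -0.13 (95% interval -0.80 to 0.53). Its partner Slc7a5, the LAT1 carrier of large neutral amino acids, was at 8.46 and 9.20 against 8.29 and 8.68 (difference -0.35, SE 0.39). The glutamine carriers Slc1a5 (ASCT2) and Slc38a2 (SNAT2) had differences of -0.28 (SE 0.50) and -0.09 (SE 0.33).

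Slc3a1, the other heavy chain, ran higher in GFP+ cells. It was at 5.64 and 5.62 in GFP- and 6.99 and 6.11 in GFP+ cells at E6.5, a difference of 0.92 (SE 0.38, limma adjusted p = 0.834) without overlap, and at 6.19 and 5.70 against 6.59 and 6.29 at E7.5. Its usual light chain, Slc7a9, was left out as low, with a highest value of 3.70. The creatine carrier gene Slc6a8 and the taurine carrier gene Slc6a6 had differences of 0.44 (SE 0.24) and 0.28 (SE 0.36) over both stages, neither of which passed.

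Both main facilitative glucose transporters were lower in GFP+ cells on every array at each stage. Slc2a3 encodes GLUT3, a high-affinity glucose transporter. It was at 9.42 and 10.07 in GFP- and 8.86 and 7.95 in GFP+ cells at E6.5, and at 11.10 and 10.32 against 9.90 and 8.98 at E7.5. The groups did not overlap at either stage, with differences of -1.34 (SE 0.51, -0.89 without GFP+ E6.5 replicate 2) and -1.27 (SE 0.51, -0.81 without GFP+ E7.5 replicate 2), and -1.30 over both (SE 0.36, limma adjusted p = 0.404). Its other 3 probe sets gave -1.57, -1.58 and -1.40 at E6.5 and -1.18, -1.10 and -1.14 at E7.5. Slc2a1, which encodes the widely expressed GLUT1, was at 11.40 and 11.04 against 10.26 and 10.29 at E6.5 and 11.61 and 11.60 against 10.98 and 11.02 at E7.5. The gap again held on every array but stayed under 1 log2 unit, at -0.94 and -0.60 (SE 0.28 for each), and -0.77 over both stages (SE 0.20, limma adjusted p = 0.359). Its second probe set gave -1.18 and -0.74. Slc2a2, the GLUT2 gene of absorptive epithelia, was left out as low, with a highest value of 3.51.

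Slc5a3, the sodium-coupled transporter of myo-inositol, an osmolyte and lipid precursor, ran the other way within the sugar and polyol group. It was at 4.39 and 5.09 in GFP- and 6.58 and 6.04 in GFP+ cells at E6.5, and at 5.41 and 5.55 against 5.92 and 6.78 at E7.5. Both GFP+ arrays exceeded both GFP- arrays at each stage, by 1.57 (SE 0.42) and 0.87 (SE 0.42, 0.44 without GFP+ E7.5 replicate 2), or 1.22 over both (SE 0.30, limma adjusted p = 0.338). Over the 21 genes of that group the median difference was 0.00 at E6.5 and 0.14 at E7.5. The lactate and pyruvate carriers did not pass. Slc16a1 (MCT1) had a difference over both stages of -0.46 (SE 0.44) and Slc16a3 (MCT4) of -0.26 (95% interval -0.74 to 0.23). Bsg, whose product basigin brings both to the membrane, was at 10.04 and 10.11 in GFP- and 9.90 and 10.02 in GFP+ cells at E6.5.

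**Figure D2:**
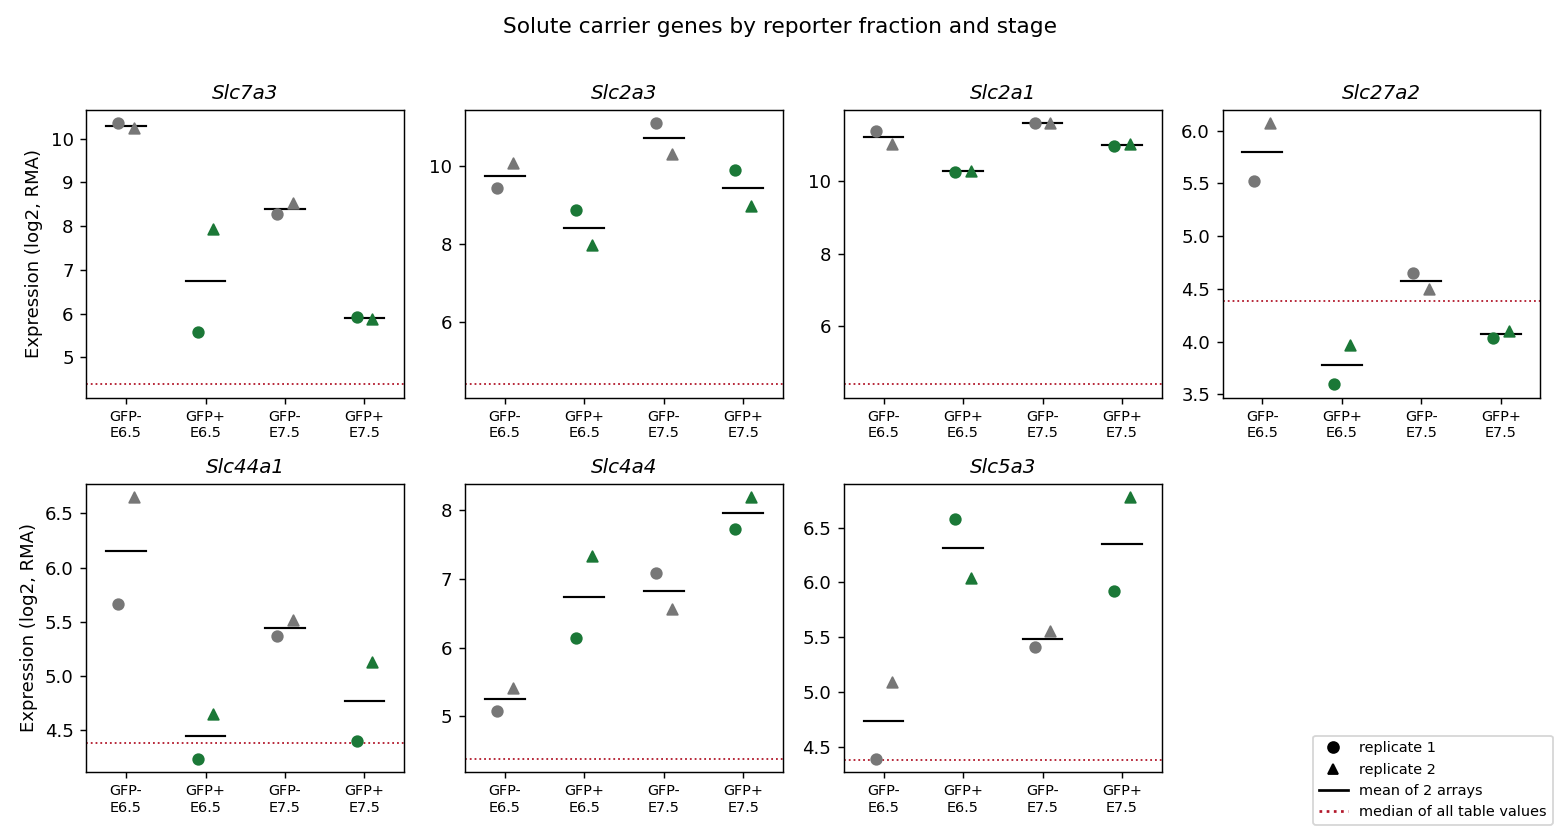
Levels (log2, RMA) of 7 solute carrier genes on each array, with circles for replicate 1, triangles for replicate 2, bars for the mean of 2 arrays and a dotted line at the median of all table values (4.38). Slc7a3, Slc2a3, Slc2a1, Slc27a2 and Slc44a1 lie lower and Slc4a4 and Slc5a3 higher in GFP+ than in GFP- cells of the same stage, on every array.

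Slc4a4 encodes NBCe1, which moves sodium together with bicarbonate and so acts on cell pH. It was at 5.08 and 5.42 in GFP- and 6.13 and 7.33 in GFP+ cells at E6.5, and at 7.08 and 6.55 against 7.73 and 8.19 at E7.5. GFP+ arrays were higher at each stage, and E7.5 arrays were higher within each fraction. The fraction difference was 1.49 at E6.5 (SE 0.46, 0.89 without GFP+ E6.5 replicate 2), 1.14 at E7.5 (SE 0.46) and 1.31 over both (SE 0.32, limma adjusted p = 0.347). Its probe sets disagreed: the 3 not used gave 1.06, -0.05 and 0.62 at E6.5 and 3.48, 0.02 and -0.13 at E7.5, and their mean with the one used was 0.78 at E6.5. Of the other 5 bicarbonate and proton exchanger genes none was separated. Slc4a1, the band 3 anion exchanger of red cells, was at 4.67 and 5.04 against 4.47 and 4.99 at E6.5 and 4.71 and 4.99 against 4.66 and 5.04 at E7.5, a difference over both stages of -0.06 that turned to 0.02 with the mean of all probe sets.

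Several transporters of lipids, choline, haem and anions had their highest values in the GFP- E6.5 arrays, in which the summed visceral endoderm markers were at 82.4 to 107 against 59.0 to 65.3 in GFP+ E6.5 cells. The part of that cell type was not tested. Slc27a2 encodes a very-long-chain acyl-CoA synthetase that takes up fatty acids in absorptive cells. It was at 5.52 and 6.07 in GFP- and 3.59 and 3.97 in GFP+ cells at E6.5, and at 4.65 and 4.49 against 4.03 and 4.10 at E7.5. The gap was -2.02 at E6.5 (SE 0.32, limma adjusted p = 0.122), the smallest adjusted p of the transporters in that comparison, and -0.50 at E7.5 (SE 0.32). All GFP+ values lay below 4.38 and all GFP- values above it. Slc27a2 thus met the filter only through the GFP- arrays, so both gaps were partly fixed by that choice and their size is uncertain. Slc44a1, a choline transporter of the plasma membrane, was at 5.66 and 6.65 against 4.24 and 4.65 at E6.5 and 5.37 and 5.52 against 4.40 and 5.13 at E7.5. Its fractions did not overlap at either stage, with differences of -1.71 (SE 0.43) and -0.68 (SE 0.43, -0.32 without GFP+ E7.5 replicate 1). Its other probe sets lay below 4.38 on every array.

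Slc48a1, which carries haem out of the lysosome, was at 6.64 and 5.83 in GFP- and 4.79 and 4.08 in GFP+ cells at E6.5. At E7.5 it was at 5.30 and 4.40 against 4.83 and 4.32, where the fractions overlapped. The E6.5 difference was -1.80 (SE 0.47, limma adjusted p = 0.381), with -0.90 on its second probe set. With the replicate number as a block this call changed (SE 0.19, limma adjusted p = 0.048). Slc26a6, an exchanger of chloride for oxalate and bicarbonate, was at 4.95 and 5.20 against 3.75 and 3.88 at E6.5 and 3.80 and 3.56 against 4.13 and 4.10 at E7.5. It met the filter only through the GFP- E6.5 arrays, so its difference of -1.26 (SE 0.28) was partly fixed by that choice and its size is uncertain. Slc25a23, a mitochondrial carrier of ATP-magnesium and phosphate, was at 6.65 and 5.21 against 3.64 and 4.33 (difference -1.95, -1.23 without GFP- E6.5 replicate 1).

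Of the other genes separated downward at E6.5, the monocarboxylate transporter family gene Slc16a13 was at 5.97 and 6.74 against 4.47 and 4.41, a difference of -1.91 (SE 0.66). The zinc and manganese importers Slc39a8 and Slc39a14 were at -1.25 (SE 0.40, -0.79 when the second GFP- E6.5 array was left out) and -1.23 (SE 0.47), and 2 further probe sets of Slc39a14 at -1.38 and -1.63. Slc29a1, the equilibrative nucleoside transporter ENT1, was at 6.55 and 6.37 against 5.84 and 4.47, and its spread gave an SE of 0.98 on a difference of -1.30 (-0.62 without GFP+ E6.5 replicate 2). The ascorbate transporter Slc23a2 was at -1.07, with -0.10 on its second probe set, and Slc10a3, Slc22a17 and the pyrimidine nucleotide carrier Slc25a33 at -1.03, -1.05 and -1.22. Single arrays carried part of these: Slc10a3 was -0.50 without GFP+ E6.5 replicate 2, and without GFP- E6.5 replicate 1 Slc22a17 was -0.35 and Slc25a33 -0.75. Upward, the thiamine transporter Slc19a3 was at 1.41 (0.43 without GFP+ E6.5 replicate 2) and the magnesium transporter Slc41a1 at 1.05 (0.67 without that array), but the second probe set of Slc41a1 gave -0.54.

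At E7.5 the genes separated in addition to Slc7a3, Slc2a3 and Slc4a4 were Slc18a3, Slc25a26 and Slc15a2. Slc18a3, which loads acetylcholine into vesicles, was at 4.06 and 4.40 in GFP- and 4.41 and 7.06 in GFP+ cells. One GFP+ array carried this gap of 1.5, which was 0.18 without GFP+ E7.5 replicate 2 and 2.82 without replicate 1. Slc25a26, the mitochondrial carrier of S-adenosylmethionine, was at 5.05 and 5.28 against 5.63 and 6.99 (difference 1.15), or 0.47 without GFP+ E7.5 replicate 2 and 1.83 without replicate 1. Its other probe sets gave 1.18 and 0.66. The peptide transporter gene Slc15a2 was at 4.94 and 5.26 against 3.97 and 3.36 (difference -1.44, SE 0.62), with GFP+ values below 4.38. Its other probe sets gave -0.04 and 0.10 but did not exceed 4.38 on any array.

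**Figure D3:**
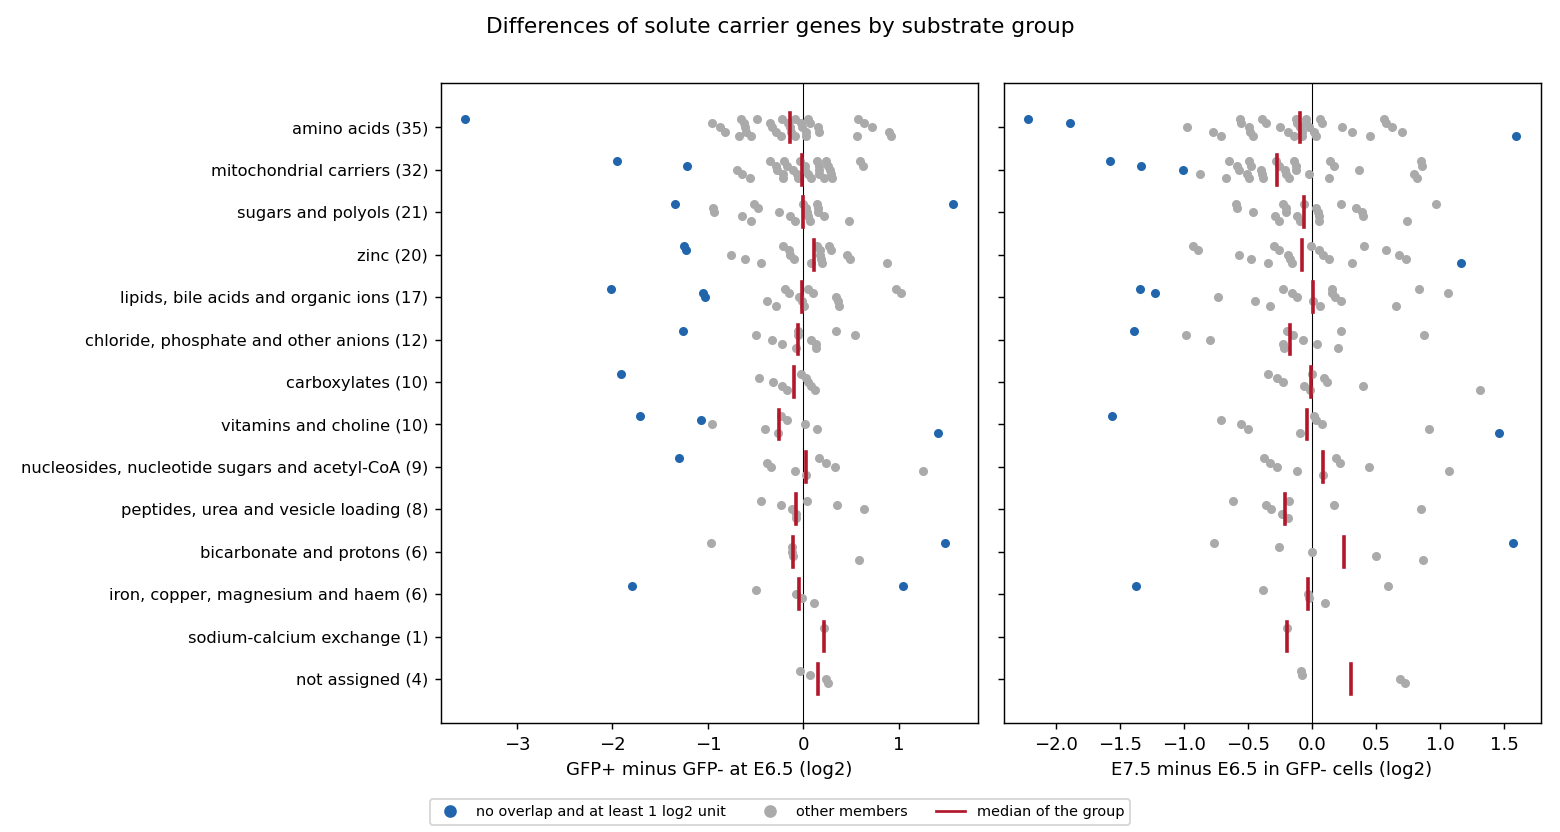
Differences (log2) of the 191 solute carrier genes by substrate group, between fractions at E6.5 on the left and between stages in GFP- cells on the right, with group sizes in brackets and red bars at group medians. Medians lie between -0.27 and 0.30 in every group of both panels, and separated genes (blue) are scattered over the groups.

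The comparison of stages asked which transporters differed between E6.5 and E7.5 within each fraction. In GFP+ cells 8 transporter genes (4.19%) were separated upward and 4 (2.09%) downward, against 2.67% and 1.58% of all genes, and the adjusted-p rule called 0.0256% of all genes higher and 0 lower. An unadjusted p under 0.05 was reached by 8 transporters higher and 4 lower, against 2.35% and 1.5% of all genes. In GFP- cells 4 (2.09%) were separated upward and 10 (5.24%) downward, against 3.49% and 2.88% of all genes, and the adjusted-p rule called 0.0769% and 0.0171% of all genes. At an unadjusted p under 0.05 there were 3 transporters higher and 11 lower, against 3.45% and 3.04% of all genes. The 10 separated downward include Slc26a6, kept only through the GFP- E6.5 arrays, which partly fixed its place in that count. The GFP- arrays also differed in visceral endoderm markers between the stages, with 6 of 14 separated downward. Over both fractions, 3 genes (1.57%) were separated upward and 1 (0.524%) downward, against 1.65% and 0.761% of all genes. For these, non-overlap held within each fraction and the difference of at least 1 log2 unit on average. The adjusted-p rule called 0.222% of all genes higher and 0.0342% lower. There, 8 transporters were higher and 10 lower at an unadjusted p under 0.05, against 3.85% and 3.37% of all genes.

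Slc7a7 had the lowest E7.5 values relative to E6.5. It encodes y+LAT1, a light chain that pairs with Slc3a2 and exchanges cationic for neutral amino acids. It was at 8.81 and 8.78 in GFP- and 8.47 and 7.82 in GFP+ cells at E6.5, and at 6.15 and 6.99 against 6.77 and 6.47 at E7.5. All 4 E6.5 arrays exceeded all 4 E7.5 arrays. The difference was -2.22 in GFP- cells (SE 0.39, limma adjusted p = 0.131), -1.52 in GFP+ cells (SE 0.39) and -1.87 over both (SE 0.28, limma adjusted p = 0.0623). Slc7a7 has a single probe set, and the last value passed when other genes were averaged over theirs (-1.87, limma adjusted p = 0.0452) and after quantile normalization over all arrays (-1.84, limma adjusted p = 0.0424). Slc3a2, its heavy chain, had a difference of -0.29 over both fractions (95% interval -0.76 to 0.18).

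Slc39a8 encodes ZIP8, an importer of zinc and manganese. It was at 7.05 and 7.96 in GFP- and 6.16 and 6.36 in GFP+ cells at E6.5, and at 8.63 and 8.71 against 8.64 and 7.92 at E7.5. E7.5 arrays were above E6.5 arrays within each fraction, by 1.17 in GFP- (SE 0.40, 0.71 without GFP- E6.5 replicate 1) and 2.02 in GFP+ cells (SE 0.40), or 1.59 over both (SE 0.29, limma adjusted p = 0.105). A second probe set gave 0.92, 2.19 and 1.55. The other 19 zinc transporter genes were not separated between the stages. Slc39a4 and Slc39a5, importers of absorptive epithelia, had stage differences of -0.50 (SE 0.41) and 0.03 (SE 0.21), and Slc39a4 reached 7.82 on GFP- E6.5 replicate 2 alone, where Apob was also higher (8.62 against 6.14 in replicate 1).

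Slc38a4, an imprinted gene for the amino acid carrier SNAT4, was at 9.55 and 8.64 in GFP- and 9.57 and 9.91 in GFP+ cells at E6.5, and at 10.82 and 10.57 against 11.04 and 10.38 at E7.5. The E7.5 arrays were higher in both fractions. The difference was 1.59 (SE 0.41) in GFP-, 0.98 (SE 0.41, 0.65 without GFP+ E7.5 replicate 1) in GFP+ cells and 1.28 over both (SE 0.29, limma adjusted p = 0.202), with 1.73, 1.52 and 1.62 on a second probe set. Slc4a4, described above, had 1.57 (SE 0.46) and 1.23 (SE 0.46, 0.63 without GFP+ E6.5 replicate 1). With the mean of its probe sets the difference over both fractions was 0.57 in place of 1.40. Slc22a18, another imprinted gene of an organic cation carrier, had 0.75 (SE 0.34), and 0.01 on its second probe set.

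**Figure D4:**
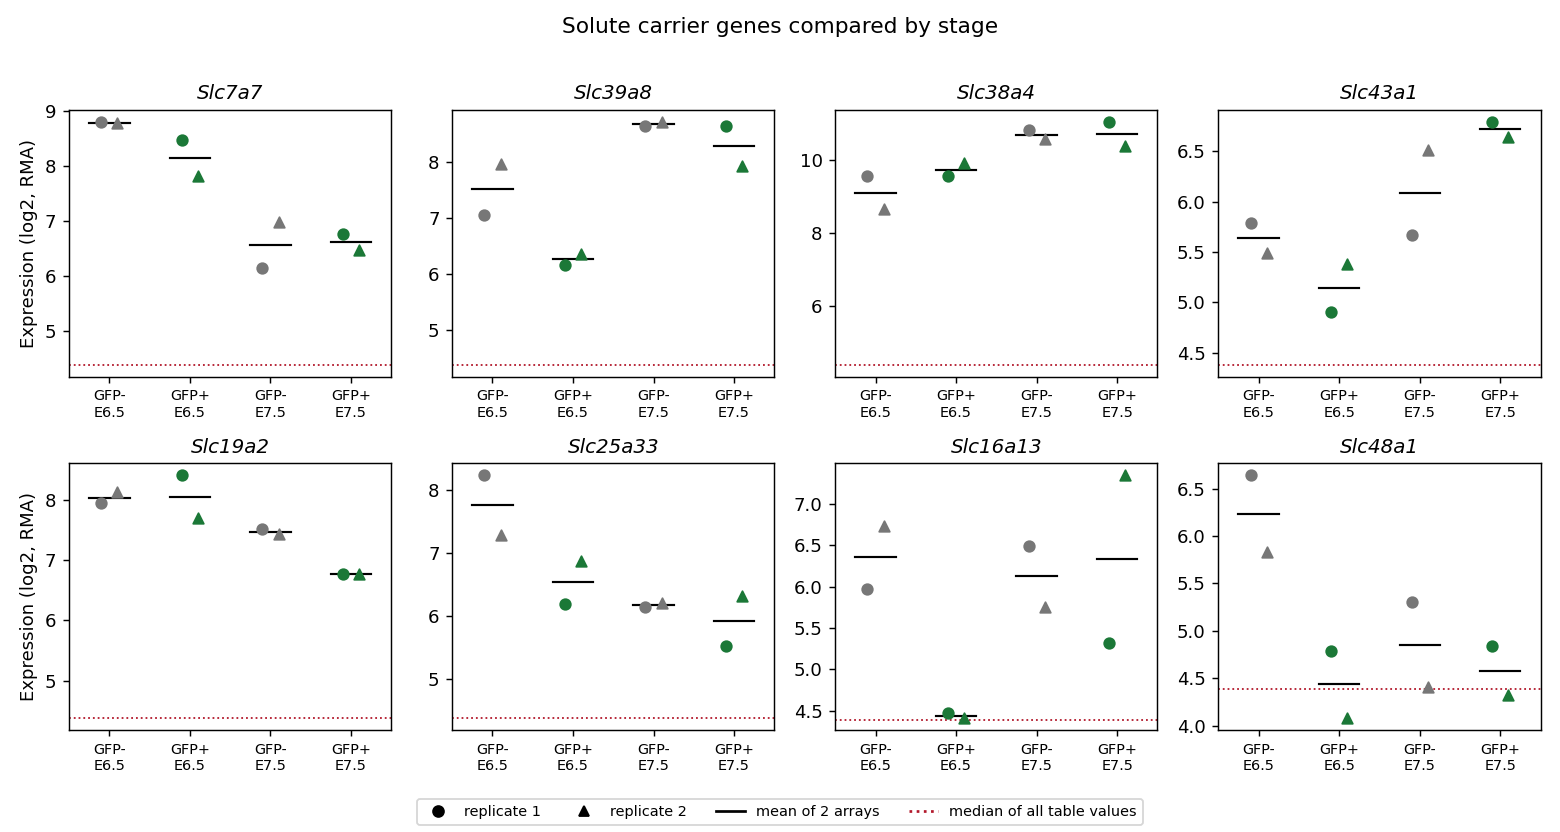
Levels (log2, RMA) of 8 solute carrier genes on each array, with circles for replicate 1, triangles for replicate 2, bars for the mean of 2 arrays and a dotted line at 4.38. Slc7a7 lies lower and Slc39a8 and Slc38a4 higher at E7.5 in both fractions, while Slc43a1 and Slc19a2 separate the stages in GFP+ cells and Slc25a33 in GFP- cells.

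Other genes were separated between stages in 1 fraction. In GFP+ cells Slc43a1, the LAT3 carrier of branched-chain amino acids, was at 4.91 and 5.38 at E6.5 and 6.79 and 6.65 at E7.5, a difference of 1.57 (SE 0.37) against 0.45 in GFP- cells. Slc27a3, of the fatty acid transport family, was at 7.21 and 7.20 at E6.5 against 8.21 and 8.55 at E7.5, a difference of 1.18 (SE 0.28). The thiamine transporter gene Slc19a2 was at 8.40 and 7.70 at E6.5 against 6.77 and 6.77 at E7.5, a difference of -1.28 (SE 0.32), with -0.19 on its second probe set. Slc2a3 had 1.04 (SE 0.51, 0.57 without GFP+ E7.5 replicate 1 and 0.58 without GFP+ E6.5 replicate 2) in GFP+ and 0.96 (SE 0.51) in GFP- cells. Slc16a13 was at 4.47 and 4.41 at E6.5 against 5.32 and 7.35 at E7.5, and its difference of 1.89 was 0.88 without GFP+ E7.5 replicate 2 and 2.91 without replicate 1. Slc22a17, a receptor for lipocalin, had 1.39 (SE 0.56) and Slc25a20, the carnitine-acylcarnitine carrier, -1.15 (-0.72 without GFP+ E6.5 replicate 2, and 0.51 on its second probe set). Slc25a18 and Slc25a34, also mitochondrial carriers, had -1.09 and 1.03, the latter 0.01 without GFP+ E7.5 replicate 2.

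In GFP- cells Slc25a33 was at 8.23 and 7.28 at E6.5 and 6.14 and 6.21 at E7.5, a difference of -1.58 (SE 0.45). The genes that were high in the GFP- E6.5 arrays recur here, and both comparisons share those arrays: Slc7a3 (-1.90), Slc23a2 (-1.57), Slc26a6 (-1.39), Slc48a1 (-1.38), Slc10a3 (-1.35), Slc25a23 (-1.34) and Slc27a2 (-1.23). Without 1 array some of these were smaller: Slc23a2 was -0.73 without GFP- E7.5 replicate 2, and Slc25a23 was -0.62 without GFP- E6.5 replicate 1 and -0.77 without GFP- E7.5 replicate 1. Slc26a6 was kept only through the GFP- E6.5 arrays, which partly fixed its value. Slc25a30 was at -1.01, but -0.14 without GFP- E7.5 replicate 2 and 0.34 with the mean of its 5 probe sets. Slc19a3, higher at E7.5, was at 1.46, or 0.64 without GFP- E7.5 replicate 2 and -0.01 on its second probe set. Of 32 mitochondrial carriers, 24 had a difference below 0 in GFP- cells, with a median of -0.27 against -0.01 over all genes, and 15 of 32 in GFP+ cells, with a median of 0.01. Carriers that supply oxidative phosphorylation did not pass. The ADP/ATP carriers Slc25a4 and Slc25a5 had 0.66 (SE 0.31) and -0.19 (95% interval -0.66 to 0.27) over both fractions, and the phosphate carrier Slc25a3 -0.04 (95% interval -0.58 to 0.51).

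The interaction asked whether the gap between fractions at E7.5 differed from that at E6.5. Of 11696 genes the adjusted-p rule called 0 in either direction, and at an unadjusted p under 0.05 limma gave 3 transporter genes upward (1.57%, against 1.34% of all genes) and 0 downward (against 1.36%). These were Slc26a6 (1.70, SE 0.39), Slc27a2 (1.51, SE 0.45) and Slc27a3 (1.11, SE 0.39). The values of Slc26a6 and Slc27a2 were partly fixed by the filter. Slc26a6 met it only through the GFP- E6.5 arrays and Slc27a2 only through the GFP- arrays. The next smallest p values belonged to Slc10a3 (1.36), Slc22a17 (1.84), Slc48a1 (1.52), Slc16a13 (2.12) and the zinc transporter gene Slc30a6 (-1.51). Without 1 array Slc10a3 was 0.83 (GFP+ E6.5 replicate 2), Slc22a17 was 1.14 (GFP- E6.5 replicate 1) and Slc16a13 was 1.11 (GFP+ E7.5 replicate 2). For Slc7a3 the E7.5 gap was 1.04 less negative (SE 0.96), for Slc2a3 it differed by 0.07 (SE 0.71) and for Slc4a4 by -0.35 (SE 0.65). No member was separated in opposite directions at the 2 stages.

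Further genes chosen by name had these differences over both stages, GFP+ minus GFP-. Of ion and phosphate carriers, Slc12a2, the sodium-potassium-chloride cotransporter NKCC1, had 0.40 (SE 0.33) and the phosphate importer Slc20a1 -0.27 (SE 0.45). Of iron carriers, Slc25a37, which imports iron into mitochondria, had -0.18 (SE 0.36) and the iron exporter ferroportin, Slc40a1, -0.40 (SE 0.40), with 6 of its 8 values below 4.38. The reduced folate carrier Slc19a1 had -0.14 (SE 0.29), the fatty acid transporter Slc27a4 0.15 (SE 0.45) and the CMP-sialic acid transporter Slc35a1 0.89 (SE 0.65). Slc35a1 was at 3.41 and 6.45 in GFP- E6.5 cells, the widest gap between these replicates of any member. None passed. Over both stages, 2 transporter genes (1.05%) were separated upward, Slc4a4 and Slc5a3, and 4 (2.09%) downward, Slc7a3, Slc2a3, Slc27a2 and Slc44a1. The shares of all genes were 0.616% and 0.992%, and the adjusted-p rule called 0.00855% of all genes higher and 0 lower. Non-overlap held within each stage here, while the least difference of 1 log2 unit applied to the average. At E7.5 alone, Slc5a3, Slc27a2 and Slc44a1 differed by less than that. Slc27a2 met the filter only through the GFP- arrays, which partly fixed its separation. At an unadjusted p under 0.05, 5 transporters were higher and 11 lower, against 2.38% and 3.1% of all genes.

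By substrate group, the medians over both stages lay between -0.35 (10 genes for vitamins and choline, 9 of them below 0) and 0.14 (the single sodium-calcium exchanger gene, Slc8a2), against 0.00 over all genes. The cardiac sodium-calcium exchanger gene Slc8a1 was left out as low, with a highest value of 4.26. Of the 101 genes left out, 86 lay under 4.38 on every array and 15 above it on 1 array (means 3.42 to 4.29). Just inside the rule, 12 members lay above it on exactly 2 arrays (means 3.76 to 4.36), and 118 did on all 8. Among 55 related transport genes outside the symbol rule (Slco and Slc35b to Slc35f genes, ABC transporters, subunits of the sodium pump and some genes by name) limma called 0 in each comparison. Between fractions, 1 was separated upward and 4 downward at E6.5, against 2.72% and 3.45% of all genes. At E7.5 it was 0, against 1.21% and 1.51%. Between stages, 3 were separated upward and 2 downward in GFP+ cells, against 2.67% and 1.58% of all genes. In GFP- cells 3 were separated in each direction, against 3.49% and 2.88%.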

How the data were processed

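The deposited table held the authors' log2 values of 45141 probe sets on 8 arrays, made with RMA per the submitters' processing notes; scanner files and the array's genome build were not used here. Control probe sets (104), those with several symbols (551) and unnamed ones (15588) were left out, and of a gene's probe sets the brightest on average stood for it. No further normalization was applied. Array medians differed by replicate number, and how RMA was run over the arrays is not given in the sources used here. Group means were fitted with limma 3.58.1 (R 4.3.3) on all 8 arrays without a block, with Benjamini-Hochberg adjustment over 11696 genes and a threshold of 0.05. The number of arrays, 2 a group, limits the precision, and the 50-cell amplification adds its own error. The fit was tested on simulated data. Per the series' design text the whole design was carried out on 2 biological samples, and deviations of same-numbered arrays correlated at 0.401 to 0.532 in all 6 pairs of groups, so the replicate number was taken to pair arrays in the blocked alternative.

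Named genes were the members past the threshold, the 8 separated members with the smallest p in each comparison, the 8 smallest interaction p values and 40 genes by name (31 members), or 50 members in all. Slc19a3, Slc23a2, Slc25a18, Slc25a30, Slc25a34, Slc39a14, Slc41a1 and Slc8a2 were added after their values were seen. Members, substrate groups and lists were chosen with earlier results of these data known. The alternatives were another filter, the mean of all probe sets, quantile normalization, a replicate block and leaving out each array. All 191 members matched GRCm38.p6 by gene identifier.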

Additional observations from a re-analysis of the deposited data

How the results depend on the processing

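Each comparison was recomputed under the other filters, with the mean of all probe sets, after quantile normalization, with a replicate block and without each array. Among 105 named differences, 69 of 1472 alternative values had the other sign, none of them of a separated gene among those differences. For separated genes this was largely fixed in advance. Where groups do not overlap, leaving out an array cannot reverse the sign, and the balanced block does not change the difference. Over all 61 separated differences, 1 took the other sign with the mean of all probe sets, Slc25a30 between stages in GFP- cells (0.34). That mean includes a probe set at 2.42 that exceeded 4.38 on 1 array. With the replicate number as a block, 1 transporter gene, Slc48a1, was called between fractions at E6.5 (limma adjusted p = 0.048) and 0 in every other comparison, against 0 in all without it. Over all genes the block gave 30 calls there against 9, 39 against 11 between stages in GFP- cells, 8 against 1 between fractions over both stages and 94 against 30 between stages over both fractions. The stage comparison over both fractions gave 1 called transporter gene, Slc7a7, with the mean of all probe sets and 1 after quantile normalization, against 0, and 7 separated genes after quantile normalization, against 4. With the filter of all 8 arrays, 9 genes were separated between stages in GFP- cells, against 14; fewer genes are left by construction. Leaving out each array in turn gave 0 to 1 called genes between fractions over both stages (Slc7a3). Separated genes then numbered 19 to 28 at E6.5, 6 to 26 at E7.5, 12 to 35 between stages in GFP+ cells, 14 to 33 in GFP- cells, 6 to 10 between fractions over both stages and 6 to 8 between stages over both fractions. The highest counts came without GFP+ E7.5 replicate 1 (26 and 35) and when either GFP- E7.5 replicate 1 or the second GFP- E6.5 array was left out (33 each). A lone array overlaps less by construction, for any gene, and is assumed to vary like the other groups. Shares of all genes separated under the other filter, normalization and left-out arrays are not given here. The counts therefore show nothing particular to transporters. Values near 4.38 limit the size of differences.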
